A study of Homo sapiens with 6 samples.

Results

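The nuclear genes for subunits of the respiratory chain were followed in MOLT-4, an established human line of T-cell acute lymphoblastic leukemia. Members were chosen by a rule on names, set with earlier results of these data known. It took genes outside the mitochondrial genome, without pseudogenes and antisense transcripts. Their names were NDUF with a subunit letter and number, SDHA to SDHD, UQCR, COX4 to COX8 and ATP5F1, ATP5M or ATP5P. Of 60640 genes in the tables, 89 carried such a name, and 80 of these averaged at least 1 FPKM (fragments per kilobase of transcript, scaled to the mapped fragments of a library) over the 6 libraries. Among the 80, NDUFA6-DT is a divergent noncoding transcript and NDUFC2-KCTD14 and ATP5MF-PTCD1 are readthrough transcripts, which leaves 77 subunit genes. The limma adjusted p of these 3 transcripts ran from 0.317 to 0.809. Cytochrome c1 (CYC1) and the acyl carrier subunit NDUFAB1 belong to the chain but fall outside these names, and they are given with the other genes of the pathway.

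Polyadenylated RNA came from 3 libraries of wild type cells, which served as the CRISPR knockout control, and 3 of cells labelled IK-KO. There the targeted gene was IKZF1, which encodes the DNA-binding regulator IKAROS. The edited and control cells were bought from a supplier, and neither group was given any other treatment in the labels. The knockout was made in more than one clone, and the sources do not name the one sequenced or say whether replicates were separate cultures. A difference between cell clones therefore cannot be told apart from the loss of IKAROS, and the p-values describe variation among these libraries, which may be technical. IKZF1 RNA was 134, 124 and 104 FPKM in wild type against 207, 259.6 and 207 FPKM in IK-KO. The RNA of the targeted gene was thus called higher, without overlap (log2 change 0.89, SE 0.12, limma adjusted p 0.00295). The authors checked the knockout by PCR and Western blot, and these RNA values do not measure IKAROS protein.

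Depth was alike among libraries, at 16.2 to 19.7 fragments per FPKM and kilobase, judged from the confidence bounds of the estimates. Each of 13 T-lineage markers reached 1 FPKM in every library, and their summed level was 2739 to 2940 FPKM in wild type and 3353 to 3512 FPKM in IK-KO. Of 15 markers of B, myeloid, erythroid and epithelial cells and fibroblasts, 0 reached 1 FPKM in every library and 13 stayed under 1 FPKM in all 6. HBB, EPCAM and COL3A1 were listed at 0 throughout. The epithelial marker KRT8 was at 1.97, 1.33 and 0.701 FPKM in wild type and 1.54, 1.77 and 1.11 FPKM in IK-KO. The B cell marker CD79A reached 1.83 FPKM in wild type replicate 2. The summed level of the 15 was 2.35 to 4.06 FPKM in wild type and 2.54 to 3.53 FPKM in IK-KO. The T-lineage markers did not move together: LEF1 was at 745, 767 and 675 FPKM against 1011, 948 and 1010 FPKM, CD7 at 16.8, 15.2 and 15.4 FPKM against 3.17, 4.25 and 5.09 FPKM and CD5 at 26.2, 24.1 and 25.8 FPKM against 13.4, 11.4 and 10.2 FPKM. Their part in the values that follow was not tested. In bulk RNA, fewer cells that express a gene and less RNA per cell cannot be told apart.

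The respiratory chain sits in the inner mitochondrial membrane. Complex I takes electrons from NADH and complex II from succinate, complex III passes them to cytochrome c, and complex IV hands them to oxygen. The proton gradient built on the way drives complex V, the ATP synthase. Most subunits are encoded in the nucleus, whereas a small core set comes from mitochondrial DNA, so both genomes supply each complex except complex II.

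The subunits were among the abundant transcripts of these cells, and most changed little between the groups. Mean levels ran from 11.4 FPKM (NDUFV3) to 1359 FPKM (ATP5MF) with a median of 144 FPKM, against a median of 11.7 FPKM over all 12652 tested genes. A mean of at least 100 FPKM was reached by 50 of the 77 and by 6.702% of all tested genes. Summed over the 77 genes, the level was 16245, 17595 and 17241 FPKM in wild type replicates 1 to 3 against 17028, 17662 and 16264 FPKM in IK-KO replicates 1 to 3. The groups overlapped, with means of 17027 ± 699.9 and 16985 ± 699.6 FPKM (SD, n = 3).

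Every gene was tested with limma on log2(FPKM + 1) and called at a Benjamini-Hochberg adjusted p under 0.05 over all 12652 genes. Of the 77 subunits, 8 were called (10.4%), against 19.9% of all tested genes and 24.6% of the 4406 with a mean of at least 20 FPKM, where 76 of the subunits lie. The 6 calls higher in IK-KO compare with a background of 10.1% of all tested genes and 14.9% of the abundant ones, and the 2 calls lower with 9.75% and 9.74%. The groups did not overlap in 8 subunits higher and 9 lower in IK-KO (22.1% in all), against 39% of all tested genes (20.9% higher, 18.1% lower) and 44.1% of the abundant ones (26.9% higher, 17.2% lower). The median log2 change was 0.02 over the subunits and 0.02 over all tested genes. The median size of the change, whatever its direction, was 0.08 against 0.18, and 0.14 in the abundant genes.

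For each gene, the interval gives a range for the log2 change from the spread among these libraries. It was not adjusted for the number of genes and does not cover a difference between cell clones. The 95% interval of the log2 change lay within -0.5 to 0.5 for 67 of the 69 uncalled subunits, the exceptions being COX7B and NDUFB1. Counting called genes too, it did so for 94.8% of subunits, 54.9% of all tested genes and 79.8% of the abundant ones. The change was under 0.3 in size in 74 of the 77 (96.1%), all but NDUFA8, NDUFB6 and NDUFB1. It was under 0.3 in 69.9% of all tested genes and 80.1% of the abundant ones.

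**Figure D1:**
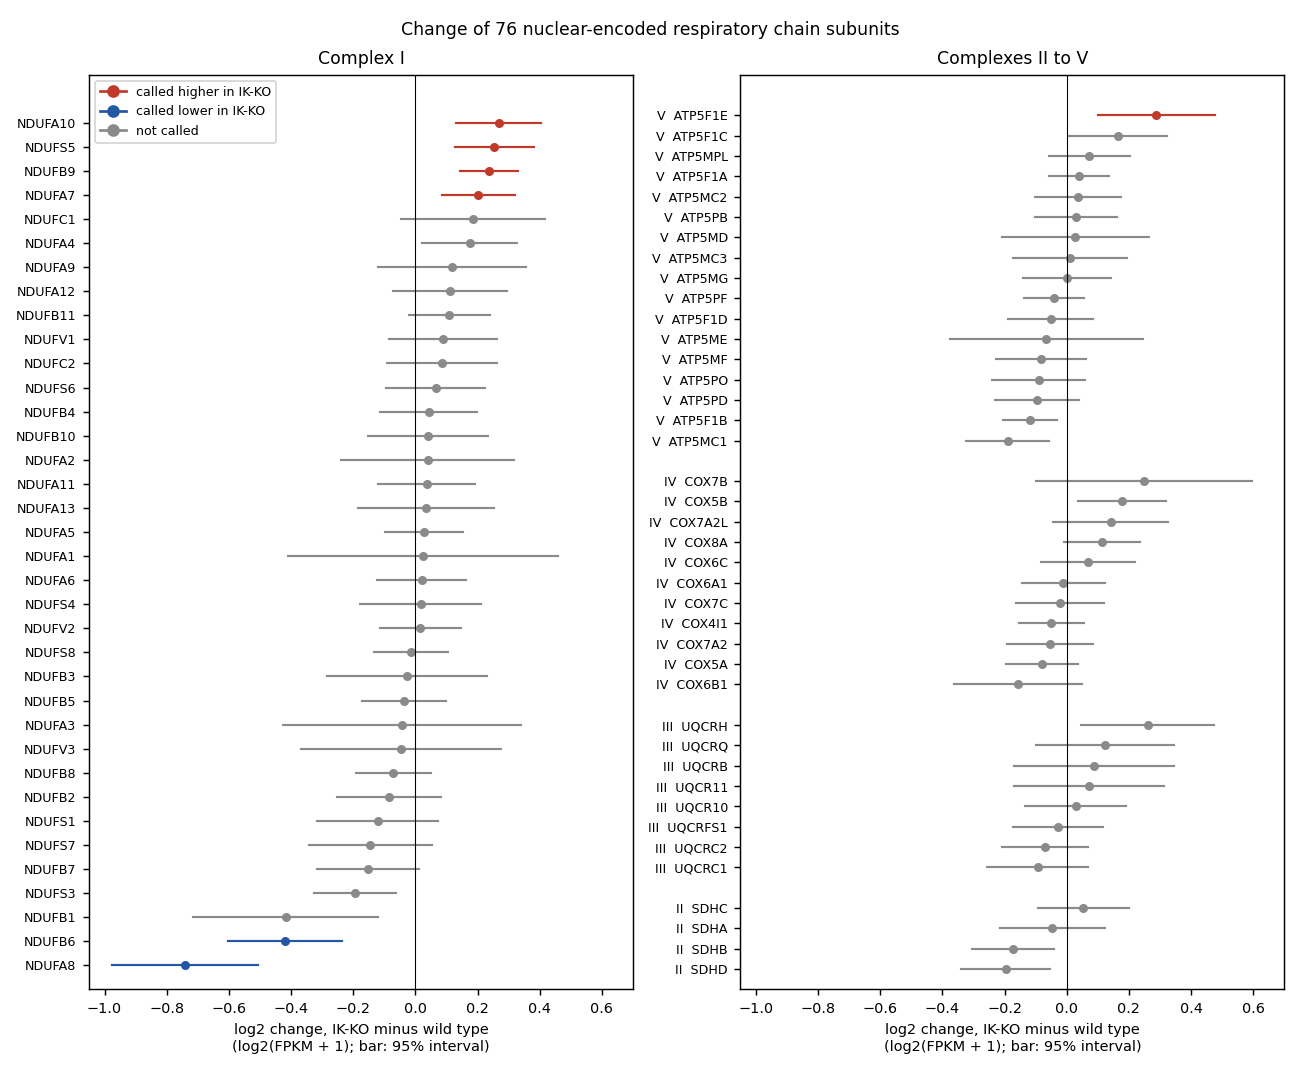
Log2 change of each of 76 subunits (IK-KO minus wild type, on log2(FPKM + 1)) with its 95% interval, complex I on the left and complexes II to V on the right. Red marks 5 subunits called higher, blue the 2 called lower and grey the 69 not called; NDUFA8 stands lowest at -0.74.

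Complex I held 7 of the 8 calls, 18.9% of its 37 genes, a share near the 19.9% of all tested genes. The genes summed to 5021, 5434 and 5406 FPKM in wild type against 5214, 5614 and 5068 FPKM in IK-KO, so the totals overlapped. The median log2 change was 0.03, with 23 of 37 genes above 0. NDUFB2, an accessory subunit, had the highest level of the complex, at 429, 468 and 495 FPKM against 443, 464 and 406 FPKM (log2 change -0.08, limma adjusted p 0.458).

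NDUFA8, an accessory subunit on the intermembrane space side with paired cysteines, fell most. Its wild type libraries were at 55.9, 61.1 and 53.2 FPKM and its IK-KO libraries at 32.1, 38.6 and 30.3 FPKM. Every IK-KO library lay below every wild type library (log2 change -0.74, SE 0.10, limma adjusted p 0.00295). NDUFB6, a membrane arm subunit, fell from 47.6, 45.8 and 48.6 FPKM to 39.2, 33.5 and 32.9 FPKM, again without overlap (log2 change -0.42, SE 0.08, limma adjusted p 0.0101).

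Both lie on chromosome 9 (GRCh38), NDUFA8 at 122144058 to 122159779 and NDUFB6 at 32553001 to 32573184 on the other arm, and no other subunit of the 77 does. Of all tested genes on chromosome 9, 46.9% were called lower and 1.92% higher. Without the members, the median log2 change there was -0.35 over 467 genes, 88.4% of them below 0. Of these, 9.64% had a lower change than NDUFA8 and 38.3% a lower change than NDUFB6. The nearest tested genes, up to 25 on each side, had a median change of -0.35 around NDUFA8 and -0.33 around NDUFB6. With that median taken off each gene, 16.4% of all tested genes were called. NDUFA8 was still among them at -0.39 (limma adjusted p 0.0388), whereas NDUFB6 was at -0.09 (limma adjusted p 0.507). The median was taken off the IK-KO values as a fixed number. These p-values therefore leave out its own error and the spread among the genes around it.

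Of the 5 rises of complex I, 4 are described. NDUFB9, an accessory subunit of the LYR motif family (chromosome 8, 124539101 to 124580648), was at 227, 224 and 222 FPKM in wild type and rose to 260.4, 271 and 261 FPKM, without overlap (log2 change 0.24, SE 0.04, limma adjusted p 0.00699). NDUFS5, another subunit with paired cysteines (chromosome 1, 39026318 to 39034636), rose from 370.3, 411 and 399.5 FPKM to 452, 484 and 472 FPKM, without overlap (log2 change 0.25, SE 0.05, limma adjusted p 0.0165). It was not called without wild type replicate 1 or IK-KO replicate 2 or 3 (log2 change 0.21 to 0.25, limma adjusted p 0.0502 to 0.0617), nor with the neighbours' median taken off at 0.19 (limma adjusted p 0.0566) or without the filter on low values (limma adjusted p 0.0521). Only NDUFA8 and NDUFB9 were called in each of 17 alternative analyses, with log2 changes of -0.84 to -0.39 and 0.20 to 0.28.

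NDUFA10, which resembles nucleoside kinases (chromosome 2, 239892450 to 240025345), rose from 59.95, 58.1 and 65.3 FPKM to 72, 74.05 and 74.9 FPKM (log2 change 0.27, SE 0.06, limma adjusted p 0.01897). NDUFA7, a small accessory subunit (chromosome 19, 8308768 to 8321375), rose from 95.5, 93.8 and 94.8 FPKM to 111, 113 and 104 FPKM (log2 change 0.20, SE 0.05, limma adjusted p 0.0297). Neither gene had overlapping groups. NDUFA10 was not called without wild type replicate 1 or 2 or IK-KO replicate 2 or 3 (log2 change 0.23 to 0.26, limma adjusted p 0.0591 to 0.0651), nor NDUFA7 without wild type replicate 1, 2 or 3 or IK-KO replicate 1 or 2 (log2 change 0.18 to 0.21, limma adjusted p 0.05896 to 0.0935). NDUFA10 also lost its call under median-of-ratios scaling (limma adjusted p 0.0556), with GC content and length regressed out (0.0631) and with that and a replicate block (0.0742), and NDUFA7 with the replicate block alone (limma adjusted p 0.0715).

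NDUFB1 and NDUFS3 were not called and are named because their groups did not overlap, a choice made after their values were seen. NDUFB1, a small accessory subunit, was at 316, 406 and 416 FPKM against 246, 293 and 310.5 FPKM (log2 change -0.42, 95% interval -0.72 to -0.12, limma adjusted p 0.0591). It was called lower without wild type replicate 1, with nuclear genes scaled to one total, and with the replicate block, with or without GC content and length regressed out. Its transcript is 317 nucleotides long, and its upper confidence bounds lay on average 13.1% above the estimates, where the median over the subunits was 6.84%. NDUFS3, a core subunit of the peripheral arm, was at 108 to 119 FPKM in wild type and 97.04 to 104 FPKM in IK-KO (log2 change -0.19, limma adjusted p 0.0517), and it was called lower under each of 3 other scalings, with neighbours removed, with GC content and length regressed out, and without wild type replicate 3.

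**Figure D2:**
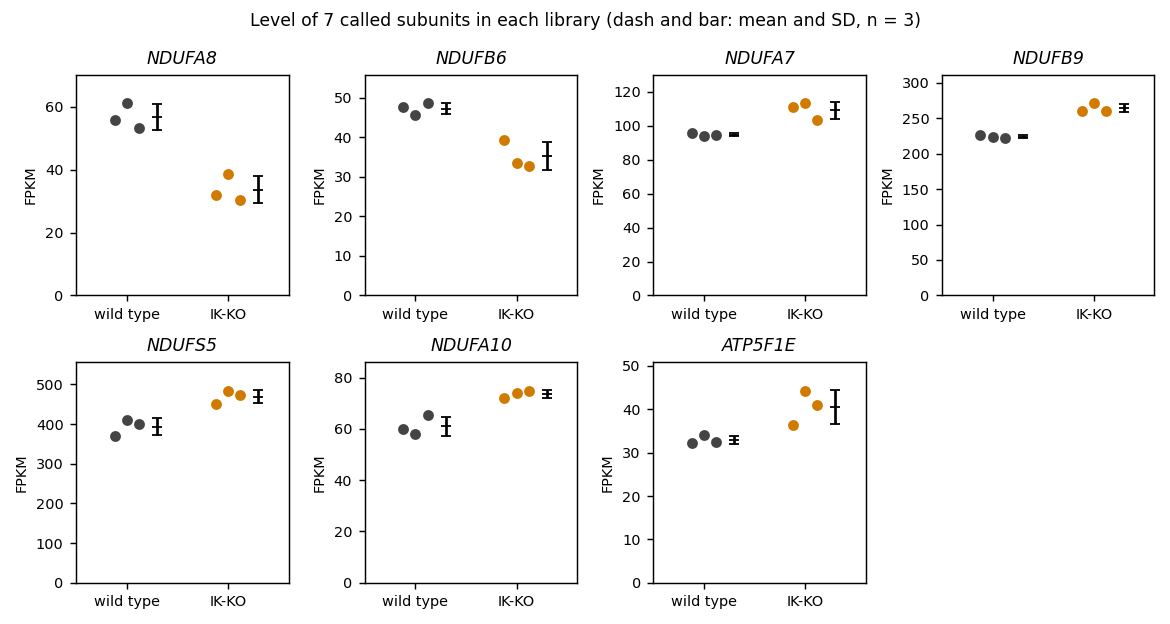
FPKM of 7 called subunits in each library, with the mean and SD (n = 3) beside the points and axes that start at 0. In every panel the 3 IK-KO libraries lie wholly above or wholly below the 3 wild type libraries, and NDUFA8 falls from a mean of 56.7 to 33.7 FPKM.

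**Figure D3:**
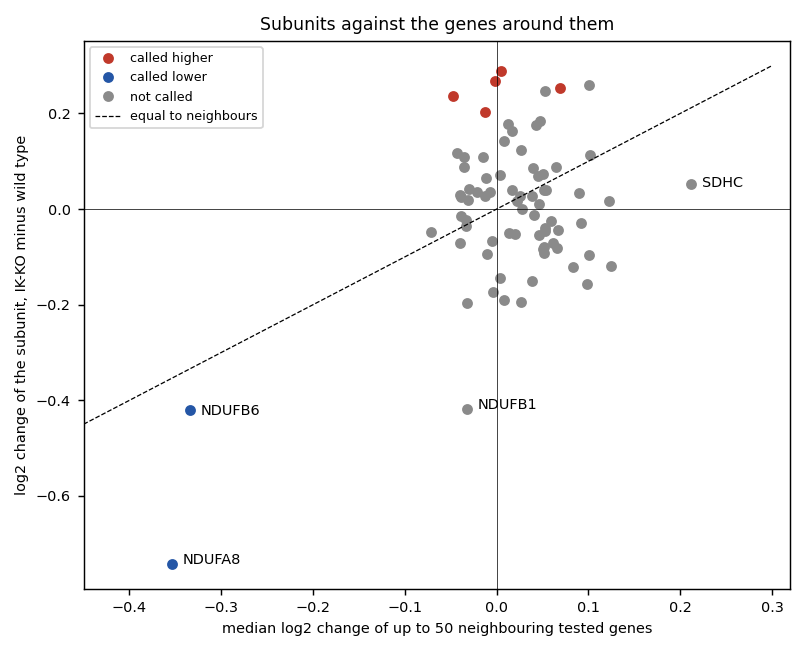
Log2 change of each of 76 subunits (vertical) against the median log2 change of up to 50 neighbouring tested genes that are no members (horizontal), with a dashed line at equality. NDUFB6 lies near the line, NDUFA8 below it at -0.74 against -0.35, and SDHC below it at 0.05 against 0.21.

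Promoter windows were searched for sites known from respiratory genes and for the IKAROS core. Of the windows, 3 are shown because they differ in NRF1 and YY1 sites: those of both genes that fell, and that of NDUFA7, which rose. The windows are from RefSeq (GRCh38.p14) and run from 250 bases before to 50 after a gene's start. Of the 77 subunits, 65 matched, 3 of them through an older symbol, with 78 windows. An NRF1 site (GCGC and TGCGC with any 1 base between) was in 20.5% against 5.78% of all 35116 windows, members first. The shares were 28.2% against 10.3% for GABP and other ETS factors (CCGGAAG) and 12.8% against 1.75% for YY1 (AAGATGGCG). They were 34.6% against 24% for the IKAROS core (TGGGAA) and 62.8% against 45% for the Sp1 box (GGGCGG). The comparison was with all windows, not with those of tested or abundant genes. Whether these shares are particular to the subunits was not tested. Both strands were searched; the ETS and IKAROS words share the letters GGAA, and none of the 5 contains another. A match describes letters in the window and is no evidence of binding. Capitals mark NRF1, ETS and YY1 matches only, and IKAROS and Sp1 matches are left unmarked.
The NDUFA8 window (chr9:122159730-122160029, minus strand) holds 2 overlapping NRF1 matches, in capitals.
NDUFA8: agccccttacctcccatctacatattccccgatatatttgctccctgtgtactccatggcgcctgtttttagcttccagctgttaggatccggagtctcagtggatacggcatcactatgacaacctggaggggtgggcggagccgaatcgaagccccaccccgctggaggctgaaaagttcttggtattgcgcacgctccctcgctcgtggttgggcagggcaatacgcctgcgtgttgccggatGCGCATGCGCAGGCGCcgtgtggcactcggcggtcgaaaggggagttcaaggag
The NDUFB6 window (chr9:32573110-32573409, minus strand) holds no NRF1, ETS or YY1 match.
NDUFB6: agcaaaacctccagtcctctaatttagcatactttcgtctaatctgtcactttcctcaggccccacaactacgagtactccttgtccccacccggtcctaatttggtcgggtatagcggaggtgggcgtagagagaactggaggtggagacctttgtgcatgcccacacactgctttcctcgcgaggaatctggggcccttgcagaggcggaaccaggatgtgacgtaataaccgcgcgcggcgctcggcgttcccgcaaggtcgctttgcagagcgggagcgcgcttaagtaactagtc
The NDUFA7 window (chr19:8321326-8321625, minus strand) holds a YY1 match, in capitals.
NDUFA7: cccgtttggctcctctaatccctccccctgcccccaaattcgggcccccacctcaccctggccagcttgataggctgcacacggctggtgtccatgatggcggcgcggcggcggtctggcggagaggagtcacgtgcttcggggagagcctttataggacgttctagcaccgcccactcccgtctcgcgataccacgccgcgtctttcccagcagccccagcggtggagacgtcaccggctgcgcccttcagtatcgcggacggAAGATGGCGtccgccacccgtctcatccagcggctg

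Changes were also set side by side for subunits with and without a site, with no test. The median log2 change with and without was 0.00 and 0.02 for NRF1, -0.01 and 0.02 for ETS, -0.04 and 0.03 for YY1, 0.03 and -0.01 for the IKAROS core and 0.02 and 0.00 for the Sp1 box. Of the 5 called subunits that matched a window, NDUFA8 held the NRF1 match, NDUFA7 the YY1 and IKAROS matches, none the ETS match, and NDUFA7, NDUFA8, NDUFA10 and ATP5F1E the Sp1 match.

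Complex II, the succinate dehydrogenase shared with the tricarboxylic acid cycle, had 0 called genes of 4 in limma and 2 at an unadjusted p under 0.05. Such a p was held by 18 of the 77 subunits, 1775 of the 4406 abundant genes and 4227 of all 12652 tested genes. The 4 genes summed to 295, 291 and 292 FPKM in wild type against 285, 284 and 259.7 FPKM in IK-KO, without overlap, a difference of -5.601%. SDHC, a membrane anchor and the highest of the 4, was at 91.7, 89.2 and 95.4 FPKM against 99.4, 99.4 and 88.2 FPKM, which overlap (log2 change 0.05, limma adjusted p 0.606). It lies on chromosome 1 at 161314257 to 161375340, among genes with a median change of 0.21. The next 3 genes were named after their values were seen. SDHB, the iron-sulfur subunit, was at 92.3, 90.7 and 88.3 FPKM against 85.4, 77.3 and 77.8 FPKM (log2 change -0.17, limma adjusted p 0.07097), and SDHD, the other anchor, at 66.1, 66.3 and 63.7 FPKM against 59.02, 59.2 and 52.8 FPKM (log2 change -0.20, limma adjusted p 0.0634). In both the groups did not overlap, and both were called lower under each of 3 other scalings. SDHA, the flavoprotein, was at 44.8 ± 0.279 against 43.4 ± 3.96 FPKM (SD, n = 3), and its 3 pseudogenes held 33.6% of the combined level, so its own value is less certain.

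Complex III had 0 called genes of 8 in limma and 1 at an unadjusted p under 0.05. The sums of 1129, 1228 and 1258 FPKM in wild type and 1265, 1394 and 1250 FPKM in IK-KO overlap. UQCRH, the hinge subunit next to cytochrome c1, had the highest level, at 353, 382 and 401 FPKM against 462, 505 and 398 FPKM (log2 change 0.26, SE 0.09, limma adjusted p 0.092). Its IK-KO replicate 3 lay inside the wild type range, and without that library UQCRH was called at 0.35 (limma adjusted p 0.0305). UQCRHL, an intronless copy of UQCRH, averaged 0.942 FPKM and was not tested. The core proteins UQCRC1 and UQCRC2 and the Rieske protein UQCRFS1 had log2 changes of -0.09, -0.07 and -0.03 (limma adjusted p 0.395, 0.452 and 0.788). Pseudogenes of UQCRFS1 held 17.9% of the combined level.

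Complex IV has subunits with tissue isoforms, and MOLT-4 cells listed the widely expressed forms in both groups. Its 11 genes had 0 calls in limma and 1 at an unadjusted p under 0.05, with sums of 3693, 4031 and 3928 FPKM against 3782, 4095 and 3792 FPKM. COX4I1, the common form of the regulatory subunit 4, was at 459, 484 and 478 FPKM against 455, 474 and 443 FPKM (log2 change -0.05, limma adjusted p 0.4797), while its lung and hypoxia form COX4I2 was listed at 0 in all 6 libraries. The heart and muscle forms COX6A2 and COX7A1 and the testis forms COX7B2 and COX8C were listed at 0 in all 6 as well, and COX6B2, likewise a testis form, averaged 0.0214 FPKM. Their common partners were expressed. COX6A1 was at 640.4 ± 33.1 against 635 ± 32.9 FPKM (SD, n = 3, wild type first), COX6B1 at 427 ± 39.02 against 383 ± 33.2 FPKM, COX7B at 62.05 ± 9.29 against 74.1 ± 12.5 FPKM and COX8A at 489 ± 22.1 against 529 ± 23.1 FPKM. The limma adjusted p of these 4 was 0.912, 0.264, 0.291 and 0.182.

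COX7C had the highest level of complex IV, at 706, 807 and 747 FPKM against 714, 776 and 734 FPKM (log2 change -0.02, limma adjusted p 0.8401). COX7A2, the common partner of COX7A1, is the only member on chromosome 6 (75237675 to 75250323), where 29.6% of tested genes were called higher and 5.95% lower. It was at 153, 162 and 144 FPKM against 146, 153 and 142 FPKM (log2 change -0.05, limma adjusted p 0.575). The other tested genes of that chromosome had a median change of 0.21, and the nearest neighbours of COX7A2 0.05. COX6C was at 363 ± 20.7 against 382 ± 24.6 FPKM (SD, n = 3; log2 change 0.07, limma adjusted p 0.503). COX7A2L, which helps complexes III and IV join in supercomplexes, was at 81.02 ± 2.59 against 89.8 ± 8.96 FPKM (log2 change 0.14, limma adjusted p 0.257). Without IK-KO replicate 3 it was called at 0.23 (limma adjusted p 0.0448). NDUFA4, named for complex I and counted there but now assigned to complex IV, was at 24.4, 26.5 and 25.6 FPKM against 28.7, 30.4 and 27.6 FPKM, without overlap (log2 change 0.18, limma adjusted p 0.105). Its hypoxia-induced relative NDUFA4L2 averaged 0.599 FPKM.

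Complex V had 1 called gene among 17, and its sums of 6108, 6611 and 6357 FPKM in wild type and 6482, 6275 and 5895 FPKM in IK-KO overlap. ATP5F1E, the epsilon subunit of the central stalk (chromosome 20, 59025475 to 59032345), rose from 32.2, 34 and 32.5 FPKM to 36.3, 44.3 and 40.9 FPKM, without overlap (log2 change 0.29, SE 0.08, limma adjusted p 0.0445). It was not called without wild type replicate 1, 2 or 3 or IK-KO replicate 2 or 3 (log2 change 0.22 to 0.31, limma adjusted p 0.0848 to 0.123). Its call was absent in 11 of 17 alternatives, where the adjusted p reached 0.123. ATP5MF, subunit f of the membrane part, had the highest level of all 77 genes, at 1336, 1454 and 1401 FPKM against 1371, 1377 and 1214 FPKM (log2 change -0.08, limma adjusted p 0.404). ATP5F1B, the catalytic beta subunit, was named after its values were seen. It was at 545, 546 and 529.5 FPKM against 503, 498 and 491 FPKM, without overlap and not called (log2 change -0.12, limma adjusted p 0.0655). ATP5F1B was called lower under each of 3 other scalings, with neighbours removed, and with GC content and length regressed out.

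The c ring of complex V is encoded by 3 genes with the same mature protein, and all 3 were expressed. ATP5MC2 was at 338, 354 and 307 FPKM against 341, 333 and 347 FPKM. ATP5MC1 was at 245, 258 and 267 FPKM against 239, 222 and 214 FPKM, without overlap, and ATP5MC3 at 185, 193 and 200.5 FPKM against 187, 218 and 179 FPKM. Their log2 changes were 0.04, -0.19 and 0.01 (limma adjusted p 0.727, 0.0578 and 0.943). By mean level ATP5MC2 led ATP5MC1 and ATP5MC1 led ATP5MC3 in both groups, though the libraries of the last pair overlapped in IK-KO. ATP5MGL, a copy of subunit g, averaged 0.106 FPKM.

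**Figure D4:**
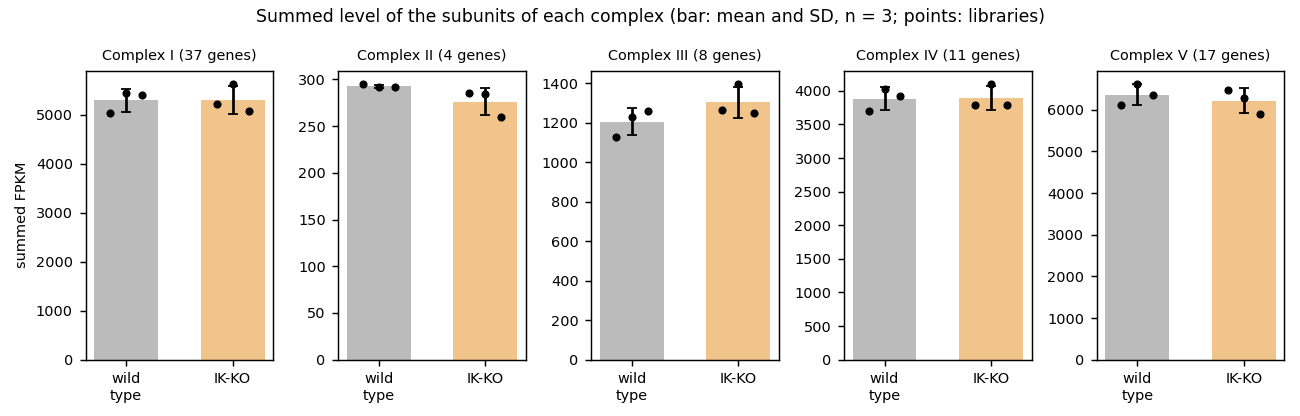
Summed FPKM of the subunits of each complex, as the mean with SD (n = 3, bars from 0) and the 3 libraries of each group as points. The groups overlap in complexes I, III, IV and V; in complex II the means are 293 and 276 FPKM and the libraries do not overlap.

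The 13 subunits made from mitochondrial DNA are the other supply of the chain. They summed to 97820, 99752 and 90859 FPKM in wild type against 94309, 91522 and 98854 FPKM in IK-KO, which overlap. Of the 13, 1 was called higher and 1 lower (15.4%, against 19.9% of all tested genes). MT-CYB, cytochrome b of complex III, was at 3523 ± 174 against 3997 ± 138 FPKM (SD, n = 3; log2 change 0.18, limma adjusted p 0.0454), and MT-ND1 of complex I at 3766 ± 173 against 3326 ± 65.2 FPKM (log2 change -0.18, limma adjusted p 0.0363). MT-ATP8 had the highest level, at 15125 ± 1881 against 14969 ± 2619 FPKM. These RNAs come from shared precursors and some overlap, so their values are not independent.

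In each list of assembly factors 0% to 5.88% of genes were called, against 19.9% of all tested genes. An unadjusted limma p under 0.05 was held by 4227 of all 12652. Of 17 for complex I, 0 were called higher and 1 lower, with 3 at an unadjusted p under 0.05. It was DMAC1, at 22.6, 22.8 and 20.1 FPKM against 13.4, 13.7 and 13.1 FPKM (log2 change -0.66, limma adjusted p 0.00124). NDUFAF8 had the highest level of that list, at 219 ± 14.7 against 217 ± 15.9 FPKM (SD, n = 3). Of 25 for complex IV, 0 were called higher and 1 lower. It was SURF1, which acts early in building the complex, at 29.6, 29.8 and 29.98 FPKM against 17.5, 22.7 and 17.1 FPKM (log2 change -0.62, limma adjusted p 0.00768). HIGD2A led that list in level, at 106 ± 7.54 against 97.1 ± 8.803 FPKM. DMAC1 and SURF1 both lie on chromosome 9, where 46.9% of tested genes were called lower. Of 10 factors of complexes II and III, limma called 0 and 2 had an unadjusted p under 0.05; UQCC1 was highest, at 46.04 ± 1.902 against 45.6 ± 2.83 FPKM. Of 6 factors and inhibitors of complex V, limma called 0 and 2 had such a p; the inhibitor ATP5IF1 was highest, at 134 ± 8.89 against 134 ± 16.6 FPKM.

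Electron carriers and coenzyme Q genes had a median log2 change of -0.14 over 18 tested genes. Of these, 0 were called higher and 2 lower (11.1%, against 19.9% of all tested genes). COQ2, which attaches the side chain of coenzyme Q, fell from 7.19, 6.801 and 6.27 FPKM to 4.56, 4.66 and 4.76 FPKM (log2 change -0.45, limma adjusted p 0.0151), and COQ4 from 29.3, 28.8 and 30 FPKM to 22.2, 22.6 and 23.1 FPKM (log2 change -0.36, limma adjusted p 0.00493). Cytochrome c (CYCS) was at 103 ± 6.61 against 102 ± 3.62 FPKM, CYC1 at 102 ± 3.78 against 110.5 ± 6.04 FPKM and NDUFAB1, the highest of the list, at 236 ± 1.05 against 249 ± 11.9 FPKM (SD, n = 3). These 3 were not called (limma adjusted p 0.943, 0.239 and 0.296).

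The tricarboxylic acid cycle and pyruvate dehydrogenase supply electrons to the chain. Of 20 genes, 2 were called higher and 4 lower (30%, against 19.9% of all tested genes), with a median log2 change of -0.02. SUCLG2, a subunit of succinyl-CoA ligase, changed most, from 18.9, 18.97 and 18.5 FPKM to 13.8, 13.2 and 14.4 FPKM (log2 change -0.42, limma adjusted p 0.00522). Its partner SUCLG1 and fumarase (FH) fell too, with log2 changes of -0.30 and -0.33 (limma adjusted p 0.0423 and 0.00982). IDH2, the highest of the list at 207 ± 4.24 against 239.7 ± 8.96 FPKM (SD, n = 3), and DLAT rose, with log2 changes of 0.21 and 0.37 (limma adjusted p 0.0175 and 0.0437).

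Among 17 tested regulators of respiratory genes, limma called 0, and 1 had an unadjusted p under 0.05. The log2 change was 0.12 for NRF1, -0.11 for GABPA, 0.14 for YY1 and 0.03 for TFAM, which packages mitochondrial DNA (limma adjusted p 0.264, 0.453, 0.209 and 0.819). MYC had the highest level, at 183 ± 10.7 against 172 ± 2.63 FPKM (SD, n = 3; limma adjusted p 0.317). Of 78 proteins of the mitochondrial ribosome, which translates the subunits made in the organelle, 6 were called higher and 6 lower (15.4%, against 19.9% of all tested genes). MRPL41 changed most, from 70.9, 70.4 and 63.99 FPKM to 24.99, 26.1 and 22.8 FPKM (log2 change -1.44, limma adjusted p 6.20e-05), and MRPL12 had the highest level, at 176 ± 8.32 against 167 ± 8.44 FPKM.

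The chromosomes of these genes were compared after their values were seen. On chromosome 9, 5 of 6 list genes were called lower (COQ4, DMAC1, MRPL41, MRPL50 and SURF1), as were both subunits, on a chromosome where 46.9% of tested genes were. On chromosome 6, 4 of 14 list genes were called higher (MRPL2, MRPL14, MRPS18A and MRPS18B) and 0 lower, or 28.6%, near the 29.6% called higher among all tested genes there. On the remaining chromosomes, 8.11% of 74 subunits and 8.15% of 184 list genes were called, against 18% of the 11270 other tested genes there. The 6 called subunits outside chromosome 9 were all higher, but this depended on the scaling. Under each of the other scalings ATP5F1B, NDUFS3, SDHB and SDHD, also outside chromosome 9, were called lower. MRPL41, DMAC1 and SURF1 (-1.44, -0.66 and -0.62) fell by more than the medians of their neighbours (-0.34, -0.29 and -0.32). COQ4 (-0.36) was close to that of its own, -0.35, and MRPL50 (-0.32) fell by less than its own, -0.40.

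**Figure D5:**
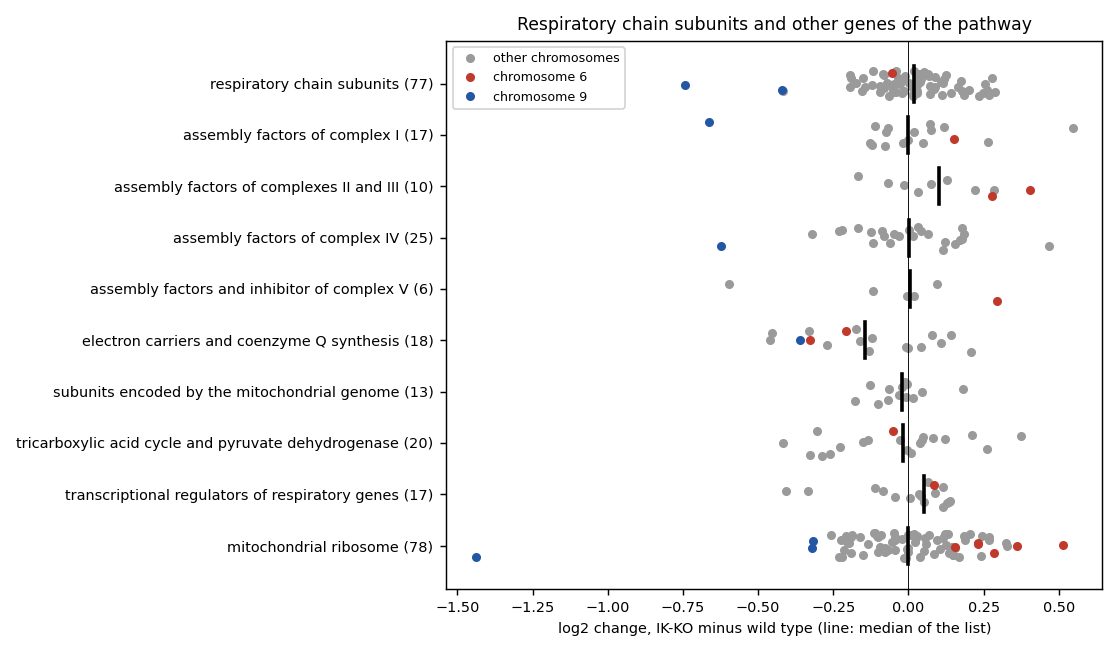
Log2 change of every tested gene of the subunits and the 9 other lists, with the number of genes in brackets and a black line at each median. Genes on chromosome 9 (blue) lie left of 0 in every list that has one, down to -1.44 for MRPL41, and 11 of the 14 list genes on chromosome 6 (red) lie right of 0.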

How the data were processed

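Polyadenylated RNA of 3 wild type and 3 IK-KO libraries was analysed, grouped by the labels. The deposited values are FPKM per gene with confidence bounds, which the authors scaled for transcript length and depth. The submitters' processing notes name STAR 2.6.1c, Cufflinks 2.2.1, HOMER 4.10 and hg38. All 49727 single-row identifiers shared with GENCODE release 44 lie at the same GRCh38 position. The strand setting is not given in the sources used here, so overlapping genes, readthroughs and near-identical copies are uncertain.

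Rows that shared an identifier were summed, and genes with a failed estimate (29 rows) were left out. No counts were given. Genes with a mean of at least 1 FPKM (12652) were tested on log2(FPKM + 1), which understates changes of low genes, with limma 3.58.1 in R 4.3.3 (trend, two-sided, Benjamini-Hochberg). In values simulated from these 12652 genes, with 200 changed among those of at least 20 FPKM, a log2 change of 1 was called in 92.5% of changed genes, 0.5 in 61.5% and 0.25 in 0%. The data held 2515 called genes, many more than the 200 changed there, and subunit rises of 0.20 to 0.29 were called. The simulated shares therefore do not carry over to the data. GC content and length came from the canonical GENCODE transcripts. Intervals are limma's 95% intervals of the log2 change, without adjustment for the number of genes.

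The members and lists were chosen with earlier results of these data known. Members named with values are the called ones, the highest of each complex, those on chromosomes 6 and 9 and the isoform sets; from each list, the called gene that changed most and the highest. Others were named after their values were seen, among them MT-ND1, COQ4, CYCS, CYC1, SUCLG1, FH, DLAT, SDHA, UQCRC1, UQCRC2, UQCRFS1 and the regulators other than MYC. Some called genes are counted but not reported here by name or shown in the plots that name subunits. Alternatives covered pseudocount, filter, scaling, each library, replicate block, neighbours, GC content and length, failed estimates and pseudogenes.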

Additional observations from a re-analysis of the deposited data

How the results depend on the processing

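Across 17 alternatives, NDUFA8 and NDUFB9 were called in each, the 8 called subunits kept their direction, and NDUFB6 lost its call only with the neighbours' change removed. Against 6 members called higher and 2 lower, the number higher was 3 without the filter on low values, 3 with neighbours removed and 1 to 5 with single libraries left out (1 without wild type replicate 1 or IK-KO replicate 2, 3 without wild type replicate 2 or 3). The number lower was 6 with median-of-ratios scaling, 6 with upper quartile scaling, 8 with nuclear genes scaled to one total, 7 with GC content and length regressed out, and 2 to 4 with single libraries left out (4 without IK-KO replicate 1). ATP5F1B, NDUFS3, SDHB and SDHD were called lower under all 3 scalings. With single libraries left out, further calls were NDUFB1 lower (wild type replicate 1), NDUFS3 lower (wild type replicate 3), ATP5MC1 and SDHB lower and ATP5F1C higher (IK-KO replicate 1), and COX7A2L and UQCRH higher (IK-KO replicate 3). Of all tested genes, 2515 were called, and 1692 to 3028 in the alternatives.

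Of 25 members followed through every alternative, 5 turned sign, all uncalled, and the cause was not tested. With neighbours removed, 12 of the 77 subunits turned sign. ATP5MC3 was at -0.0072, -0.0016 and -0.022 under the 3 scalings, -0.036 with neighbours removed and -0.028 with GC content and length regressed out, with or without the replicate block. With neighbours removed, COX7C was at 0.011 and SDHC at -0.16. Leaving out single libraries gave -0.073 to 0.068 for ATP5MC3, -0.022 to 0.080 for ATP5MC2, -0.054 to 0.029 for COX6A1 and -0.068 to 0.028 for COX7C.

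The libraries share only replicate numbers: the deviations from group means of libraries with one number had correlations of 0.0669, 0.0248 and 0.00546. A replicate block left 1805 calls and, of the members, 4 higher and 3 lower. Upper confidence bounds of the subunits lay on average 4.29% to 14.9% above the estimates. Whether depth limited the calling of small changes was not tested.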
